A study of Mus musculus with 8 samples.

Results

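Cytochrome c oxidase, complex IV of the respiratory chain, passes electrons to oxygen, and several of its nuclear-encoded subunits exist as isoforms made from separate genes. The 10 isoform genes of the subunit families Cox4, Cox6a, Cox7a and Cox8 were examined, out of 21000 mouse genes with a curated RefSeq mRNA. They were taken by gene symbol. A deposited ATAC-seq summit was assigned to a gene if it lay inside the gene or at most 20 kb from a transcription start site (TSS) of its RefSeq mRNAs, which gave 40 of 32173 summits. ATAC-seq uses a transposase that cuts exposed DNA, so that reads collect where chromatin is open. It was performed on nuclei of brown adipose tissue (BAT) from 2 WT and 2 Dot1L-BKO mice, all 12 weeks old, on chow diet and cold-exposed at 4°C for 4 hr before the tissue was frozen. Dot1L-BKO mice carried floxed Dot1l alleles, which encode an H3K79 methyltransferase, and a Ucp1-Cre transgene, so that the deletion is limited to cells that use the Ucp1 promoter, and other cells of the tissue keep the gene. WT mice were littermates, and the study describes its WT controls as Dot1l f/f, so that both groups carried the floxed alleles.

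The authors deposited a single list for the 4 libraries, with 1 position (the summit) and the −log10 of the MACS2 q-value, here called the score, for each peak. The list is named for the WT libraries against the Dot1L-BKO libraries. It is not known here if Dot1L-BKO was the background against which peaks were called or was joined with WT. In the first case a summit and its score would mark signal of WT over Dot1L-BKO, and a site open in both genotypes could be missing from the list. A summit is therefore reported as a summit of this list, and a missing one is not read as closed chromatin. The list holds no value for any single mouse. Read depth is therefore unknown, there is no replicate error, the genotypes could not be compared, and no difference between genes was tested. The members are not replicates of each other, and all counts and scores are given as a description. The nuclei came from whole tissue, so that more nuclei of a cell type and more open chromatin per nucleus cannot be told apart. The RNA-seq libraries of this series were not analysed here.

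In textbook terms, 1 gene of each family is used by nearly all tissues, and its partner is restricted. Cox4i1, Cox6a1, Cox7a2 and Cox8a are the ubiquitous forms. Cox6a2, Cox7a1 and Cox8b are the heart and skeletal muscle forms, and Cox7a1 and Cox8b are also commonly used as marker genes of brown fat. Cox4i2 is known from lung and from the response to low oxygen rather than as a muscle gene, and it is grouped here with the restricted forms only as the partner of Cox4i1. Cox7a2l encodes a relative of Cox7a2 that helps to join complexes III and IV into supercomplexes, and Cox8c is the testis form. Both of these were kept apart from the pairs. In GRCm38.p6, 3 of the restricted genes lie on chromosome 7, Cox7a1 at chr7:30184171-30186030, Cox6a2 at chr7:128205435-128206366 and Cox8b at chr7:140898942-140900446, and Cox4i2 lies at chr2:152754173-152765037. Each ubiquitous partner is on another chromosome than its restricted form, with Cox4i1 at chr8:120668225-120674209, Cox6a1 at chr5:115345652-115348958, Cox7a2 at chr9:79755241-79759853 and Cox8a at chr19:7215158-7217616. Cox7a2l lies at chr17:83501917-83514333 and Cox8c at chr12:102899306-102900534.

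The promoters of the pairs in which both partners had a summit at the start are shown first, together with Cox6a1 and Cox7a2l, since they show how the restricted and the ubiquitous starts differ in composition. Each run is of the gene's own strand, 5′ to 3′, from 170 bases before to 30 bases after the TSS, from the RefSeq promoter table for GRCm38.p6. Capitals mark matches to the 13 short motifs described further below. Promoters of Cox4i1, Cox4i2, Cox6a2 and Cox8c were not in the table. The runs lie at chr7:30184001-30184200 on the plus strand for Cox7a1, and on the minus strand at chr9:79759824-79760023 for Cox7a2, chr7:140900417-140900616 for Cox8b, chr19:7217587-7217786 for Cox8a, chr5:115348929-115349128 for Cox6a1 and chr17:83514304-83514503 for Cox7a2l.
Cox7a1, restricted: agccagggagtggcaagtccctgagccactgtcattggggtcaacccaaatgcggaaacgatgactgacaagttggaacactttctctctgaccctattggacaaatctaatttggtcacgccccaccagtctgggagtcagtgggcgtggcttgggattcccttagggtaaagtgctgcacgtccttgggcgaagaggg
Cox7a2, ubiquitous: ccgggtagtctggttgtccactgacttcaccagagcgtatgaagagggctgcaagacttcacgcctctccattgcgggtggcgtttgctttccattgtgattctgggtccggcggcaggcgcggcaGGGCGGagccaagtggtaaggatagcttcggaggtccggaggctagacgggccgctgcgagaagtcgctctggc
Cox8b, restricted: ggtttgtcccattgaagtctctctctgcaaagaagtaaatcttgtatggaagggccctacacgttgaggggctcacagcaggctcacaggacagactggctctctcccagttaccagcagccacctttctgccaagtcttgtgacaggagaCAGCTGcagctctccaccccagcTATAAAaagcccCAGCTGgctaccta
Cox8a, ubiquitous: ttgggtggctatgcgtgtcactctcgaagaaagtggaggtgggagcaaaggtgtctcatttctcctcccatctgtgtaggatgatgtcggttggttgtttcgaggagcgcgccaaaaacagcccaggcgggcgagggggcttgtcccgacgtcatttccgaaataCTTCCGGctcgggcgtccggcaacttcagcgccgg
Cox6a1, ubiquitous: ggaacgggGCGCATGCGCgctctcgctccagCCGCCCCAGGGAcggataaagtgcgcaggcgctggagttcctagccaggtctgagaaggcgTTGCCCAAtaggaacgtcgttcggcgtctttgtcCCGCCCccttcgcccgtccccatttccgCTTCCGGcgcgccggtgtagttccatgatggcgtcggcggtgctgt
Cox7a2l: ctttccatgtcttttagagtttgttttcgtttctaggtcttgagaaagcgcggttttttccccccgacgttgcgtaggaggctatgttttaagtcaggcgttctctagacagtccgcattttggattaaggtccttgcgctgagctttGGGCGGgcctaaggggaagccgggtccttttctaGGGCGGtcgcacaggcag

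All 4 ubiquitous genes and 2 of the 4 restricted genes, Cox7a1 and Cox8b, had a summit within 1 kb of a TSS, here called a promoter summit. Of all 21000 genes, 45.2% had one. Cox4i2 and Cox6a2 had none, so that the restricted genes split evenly. Cox7a2l had a promoter summit and Cox8c had none, which brought the members to 7 of 10. Over the whole locus, that is the gene and 20 kb to either side of its TSS, 9 of the 10 members had at least 1 summit and Cox8c was the exception, and 62.5% of all genes had such a summit.

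The ubiquitous Cox8a, the gene for a short subunit that spans the inner membrane, had the strongest promoter summit of the 10 genes. It lay at position 7217708 of chromosome 19, 92 bp upstream of the TSS, with a score of 26.9. This was higher than the best promoter score of 82.7% of genes with a promoter summit. Its restricted partner Cox8b had a promoter summit at position 140900323 of chromosome 7, 123 bp downstream of the TSS in the coding part of exon 1, with a score of 6.02. Only 25.9% of genes with a promoter summit had a lower one. A second, weaker summit of Cox8b lay 757 bp upstream with a score of 2.91. The difference Cox8b minus Cox8a was -20.9 score units, and its size cannot be set against replicate error.

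Cox7a1 and Cox7a2 encode the muscle and the liver type of another small subunit. The summit of Cox7a2 was at position 79759613 of chromosome 9, 240 bp downstream of the TSS in intron 1, with a score of 22.7. That of Cox7a1 was at position 30184127 of chromosome 7, 44 bp upstream of the TSS, with a score of 15.4. The difference Cox7a1 minus Cox7a2 was -7.36. The restricted partner had the lower score in both pairs with a value for each gene, but Cox7a1 still lay above the median of 10.7 over all 9485 genes with a promoter summit, and Cox8b lay below it.

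The other pairs had a promoter summit at the ubiquitous gene alone. Cox6a1, the non-muscle form of subunit VIa, had a summit at position 115349027 of chromosome 5, 69 bp upstream of the TSS, with a score of 9.78. For Cox6a2 the nearest summit was 18589 bp downstream of the TSS. Cox4i1, the common form of subunit IV, which takes part in regulation of the enzyme by ATP, had a summit at position 120668510 of chromosome 8 with a score of 14.0, in intron 1, 190 bp downstream of its second TSS. For Cox4i2 the nearest summit was 10298 bp downstream, in intron 4, with a score of 4.56. Cox7a2l had a promoter summit 95 bp upstream of its TSS on chromosome 17 with a score of 23.8, close to the 22.7 of Cox7a2. For Cox8c the nearest summit was 20879 bp upstream, just past the 20 kb limit, with a score of 8.12, and it lay 15 bp downstream of the TSS of a neighbouring gene, Btbd7.

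**Figure D1:**
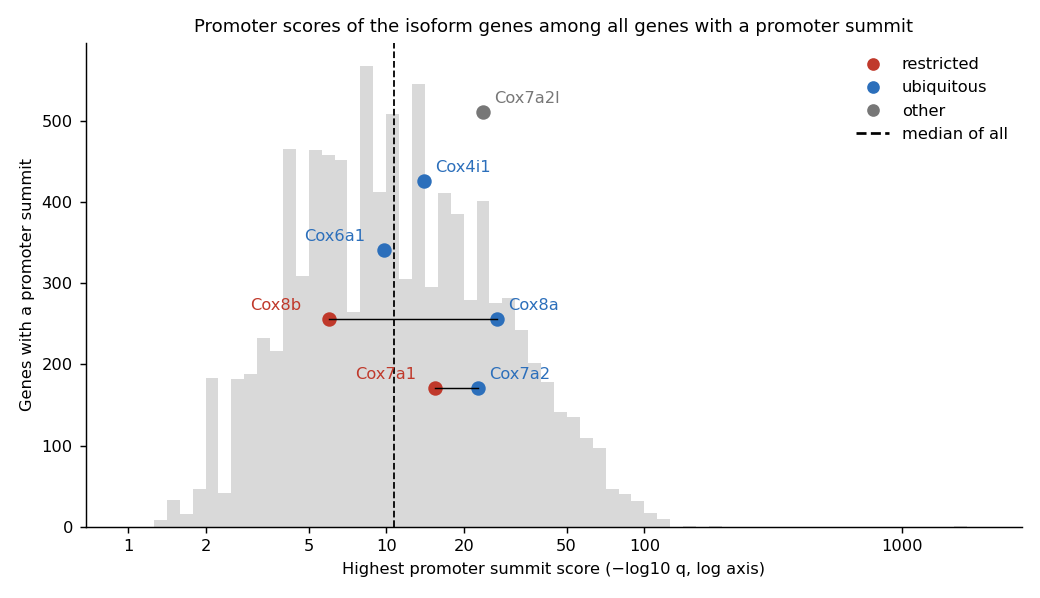
Highest promoter score of each isoform gene (points, −log10 q on a log axis, height without meaning) over the distribution of 9485 genes with a promoter summit (grey bars, number of genes), with lines joining the partners Cox7a1 and Cox7a2, and Cox8b and Cox8a. Cox8b at 6.02 and Cox6a1 at 9.78 lie under the dashed median of 10.7, and the other 5 genes lie above it.

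The 4 ubiquitous genes had a median promoter score of 18.4, with a range of 9.78 to 26.9, and the 2 restricted genes with a summit had scores of 6.02 and 15.4. The ranges overlap, since Cox7a1 lay above Cox4i1 and Cox6a1. Most scores are shared by many summits, and 30648 of the 32173 summits had a score that at least 1 other summit also had. The 6.02 of Cox8b was shared by 1236 summits and the 15.4 of Cox7a1 by 162. The scores have no error of their own, and the order of neighbours such as Cox7a2l and Cox7a2 was not tested.

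CpG content, the frequency of C followed by G, was lower in the promoters of the restricted genes. Promoters rich in CpG are typical of genes used by all tissues, and promoters poor in CpG of genes used by few. The ratio of observed to expected CpG in the 300 bases from 250 before to 50 after the TSS was 1.21 for Cox4i1, 1.08 for Cox6a1, 0.84 for Cox8a and 0.83 for Cox7a2. It was 0.54 for Cox4i2, 0.33 for Cox7a1, 0.13 for Cox6a2 and 0.11 for Cox8b. The groups did not overlap, and every restricted gene lay below its own partner. The median over all genes was 0.60. Of all genes, 45.6% had a lower ratio than Cox4i2, 32.3% than Cox7a1, 13.4% than Cox6a2 and 11.8% than Cox8b. For the ubiquitous genes this share ran from 74.4% at Cox7a2 to 99.4% at Cox4i1. Cox7a2l, at 0.85, was like the ubiquitous genes, and Cox8c had 0.44. GC content separated the genes less, with 75.3% for Cox4i1 and 63.0% for Cox6a1 but 63.3% for Cox4i2, and with 56.7%, 56.0%, 53.0%, 48.3% and 45.3% for Cox7a2, Cox8a, Cox7a1, Cox8b and Cox6a2.

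When promoters with a ratio of at least 0.6 and a GC content of at least 50% were called CpG-rich, a split chosen after these values were seen, 73.1% of 9879 CpG-rich genes had a promoter summit and 20.3% of the 11121 others did (95% Wilson intervals 72.3% to 74.0% and 19.6% to 21.1%, for counting error only). The 4 ubiquitous genes and Cox7a2l were CpG-rich, and all 5 had a promoter summit. The 4 restricted genes and Cox8c were not, and 2 of these 5 had one. Beside genes of like CpG content, the summit of Cox8b stood in the range from 0.1 to 0.2, where 7.59% of 2267 genes had a promoter summit, and that of Cox7a1 in the range from 0.3 to 0.4, where 304 of 1519 genes had one. Cox6a2 shared the range of Cox8b and had none. Cox4i2 had none in the range from 0.5 to 0.6, where 47.7% of 1488 genes had a promoter summit. How far CpG content accounts for the split between the isoforms was not tested.

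**Figure D2:**
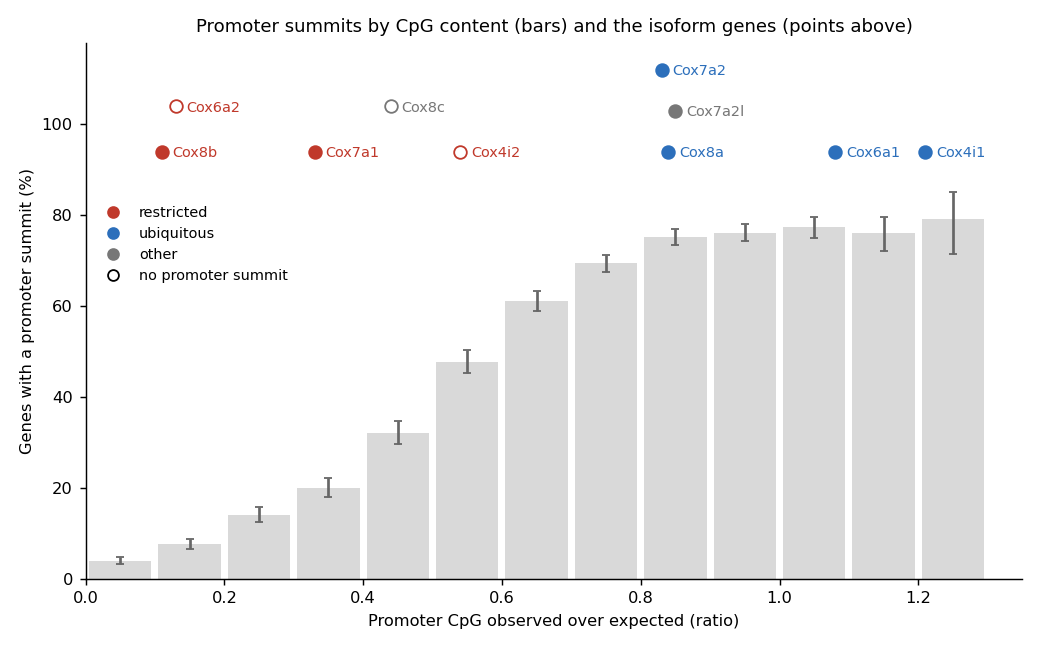
Share of genes with a promoter summit (bars, percent, with 95% Wilson intervals) by the ratio of observed to expected CpG in steps of 0.1, the last bar holding all ratios of 1.2 and over. Points above the bars mark the CpG ratio of each isoform gene (their height has no meaning), filled where the gene had a promoter summit, and the filled points of Cox8b and Cox7a1 stand over low bars, of 7.59% for Cox8b and of 304 in 1519 genes for Cox7a1.

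Short motifs in the 6 promoters of the RefSeq table were searched on both strands over the 300 bases and set beside all 32851 promoters in the table. Cox6a1 held the NRF1 word GCATGCGC, on both strands of the same overlapping stretch from -162 to -153, and 2.71% of all promoters held one. NRF1 is an activator of many respiratory chain genes. The ETS word CCGGAAG, read by GABPA among others, was found in Cox6a1 from -16 to -10 and in Cox8a across the TSS and again from 33 to 39, just past the printed run, against 8.86% of all promoters. The SP/KLF word GGGCGG was found in Cox6a1, Cox7a2 and Cox7a2l and in 35.7% of all promoters, and the match of Cox6a1 from -139 to -134 overlaps a match to the EBF word CCCNNGGGA, which 6.56% of promoters held. Cox6a1 also held the C/EBP word TTGCNNAA, found in 10.8% of promoters.

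Neither NRF1, ETS nor SP/KLF words were in the promoters of the restricted genes Cox7a1 and Cox8b. The ubiquitous Cox7a2 held neither NRF1 nor ETS words. Cox8b held the word CAGCTG, an E-box of the kind that muscle regulators such as MyoD bind, from -19 to -14 and from 17 to 22, and 16.3% of all promoters held one. It also held TATAAA from 5 to 10, just inside the annotated start, which 13.6% of promoters held, and the DR1 word GGTCANAGG, of the kind bound by PPAR with RXR, from 34 to 42, past the end of the printed run, which 1.72% held. Its promoter summit lay 123 bp downstream, past these matches. Cox7a1 held none of the 13 words. No promoter of the 6 held the YY1 word AAGATGGCG, the CRE word TGACGTCA, the ERR word TCAAGGTCA, the nuclear receptor word AGGTCA or the MEF2 word CTAAAAATA, which 1.40%, 1.79%, 0.423%, 16.3% and 0.517% of all promoters held. A match describes letters only, and no match says nothing of the factor.

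**Figure D3:**
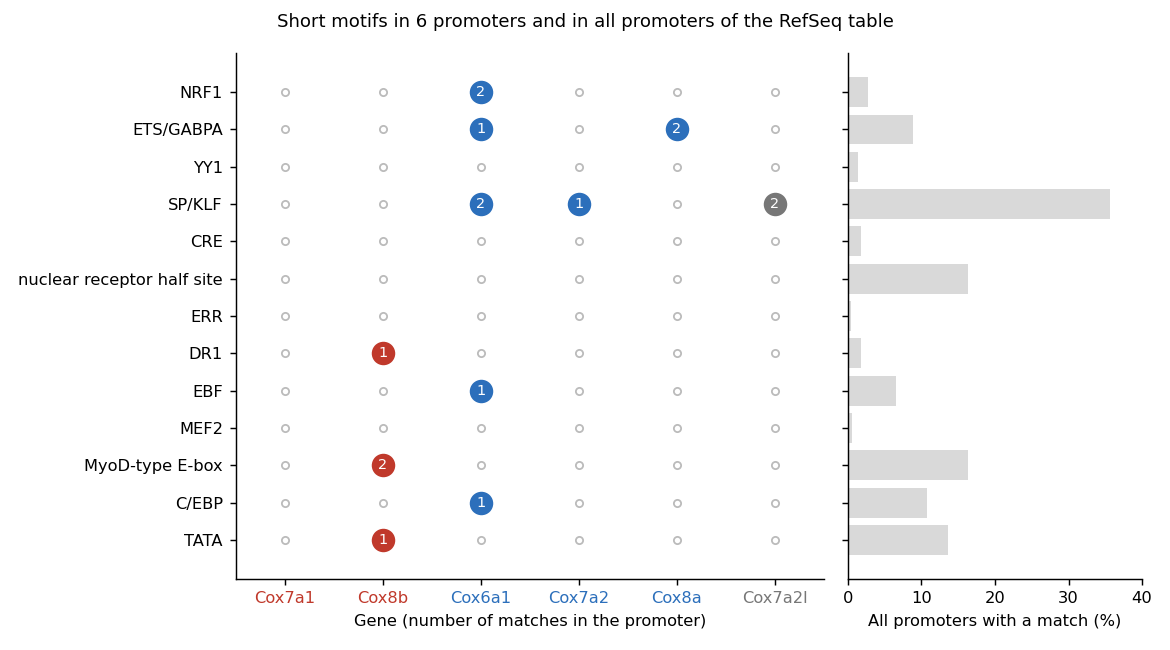
Matches to 13 short motifs in the 300-base promoters of 6 isoform genes (left, numbers are matches on either strand, small open points are none) and the share of all 32851 promoters with a match (right, percent). NRF1 matches are at Cox6a1, ETS matches at Cox6a1 and Cox8a, and E-box, TATA and DR1 matches at Cox8b. The ubiquitous Cox7a2 has neither NRF1 nor ETS matches, and Cox7a1 has no match at all.

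Beyond the promoters, Cox8b had the strongest distal summit that was nearest to a member. It was 2526 bp upstream of the TSS, between genes, with a score of 15.4, the same score as the promoter summit of Cox7a1 and above the 6.02 of Cox8b's own promoter. A further summit lay 8359 bp upstream with a score of 2.53. Cox8b thus had 4 summits for which its TSS was the nearest, as many as Cox4i1 and more than any other member, while a gene had a median of 1. The bases centred on the summit 2526 bp upstream are printed from the plus strand of GRCm38.p6, at chr7:140902922-140903022. Over 100 bases on each side it held none of the 13 motifs, and its CpG ratio was 0.17. The window around the only summit inside Cox4i2, at chr2:152764421-152764521, is printed beside it because no other summit lay nearest to that gene, and it held none of them either. The capital marks the summit base.
Cox8b, 2526 bp upstream: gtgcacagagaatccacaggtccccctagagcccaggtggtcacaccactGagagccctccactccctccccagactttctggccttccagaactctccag
Cox4i2, intron 4: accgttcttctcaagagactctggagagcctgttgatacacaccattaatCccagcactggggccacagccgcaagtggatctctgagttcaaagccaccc

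The other members had weaker distal summits. Those nearest to Cox4i1 lay 1935 bp, 4670 bp and 17040 bp downstream with scores of 4.16, 7.05 and 7.05, the first in intron 2 and the second in intron 3. Cox8a had a summit 3096 bp downstream, past the end of the gene, with a score of 6.02, and another 8824 bp upstream with a score of 2.84. Cox6a1 had a summit 1447 bp downstream in intron 2 with a score of 2.92, and Cox7a1 had one 2428 bp upstream with a score of 1.54, where the lowest score of the list was 1.31. Cox7a2 and Cox7a2l had no summit other than the one at the promoter. Over 100 bases on each side, the E-box word CAGCTG was found at the Cox4i1 summit at 4670 bp and at this Cox6a1 summit. The word AGGTCA was found at the Cox4i1 summits at 4670 bp and 17040 bp. It was also at the Cox8a summit at 3096 bp and at the Cox8b summit 8359 bp upstream. The Cox4i1 summit at 17040 bp also held the EBF and TATA words. No share over all summits was computed for these windows.

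Many summits in these loci stood nearer to other genes. Of the 40 summits, 18 had a member's TSS as the nearest and 22 had that of another gene. Counted the same way over all genes, 25159 of 45383 locus summits had the TSS of that gene as the nearest. A summit could count for several genes there. Of the 40, 11 were within 1 kb of the TSS of another gene. Cox4i1 starts opposite Emc8, a subunit of a membrane protein insertion complex. Both promoter summits of Cox4i1 lay within 1 kb of the TSSs of Emc8 and Gm27021 as well, so that they cannot be given to 1 gene alone. The weaker one, with a score of 3.75, lay 169 bp downstream of the Emc8 TSS. Cox4i2 had 5 summits upstream that were nearest to Id1, an inhibitor of basic helix-loop-helix factors. These included the highest score in any of the 10 loci, 31.7, which lay 12384 bp upstream of Cox4i2 and 5538 bp downstream of the Id1 TSS. Both summits of Cox6a2, at 18589 bp and 19482 bp with scores of 7.58 and 8.66, were nearest to Itgad, an integrin gene of leukocytes. For Cox6a2, the muscle form, none of the summits in the locus was therefore nearest to the gene. In the Cox7a1 locus a summit with a score of 18.8 lay 341 bp upstream of the TSS of Zfp146, a zinc finger gene, above the 15.4 at Cox7a1 itself. A summit in the Cox8b locus with a score of 14.7 lay 53 bp downstream of the TSS of Sirt3, a mitochondrial deacetylase. In the Cox8a locus a summit with a score of 14.0 stood 31 bp upstream of the TSS of Otub1, a deubiquitinase, and in the Cox6a1 locus one with a score of 8.65 stood 24 bp upstream of that of Gatc. At the 20 kb limit, the Cox8a locus took in a summit at 19228 bp with a score of 5.07 and left out one at 20238 bp with a score of 2.33.

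**Figure D4:**
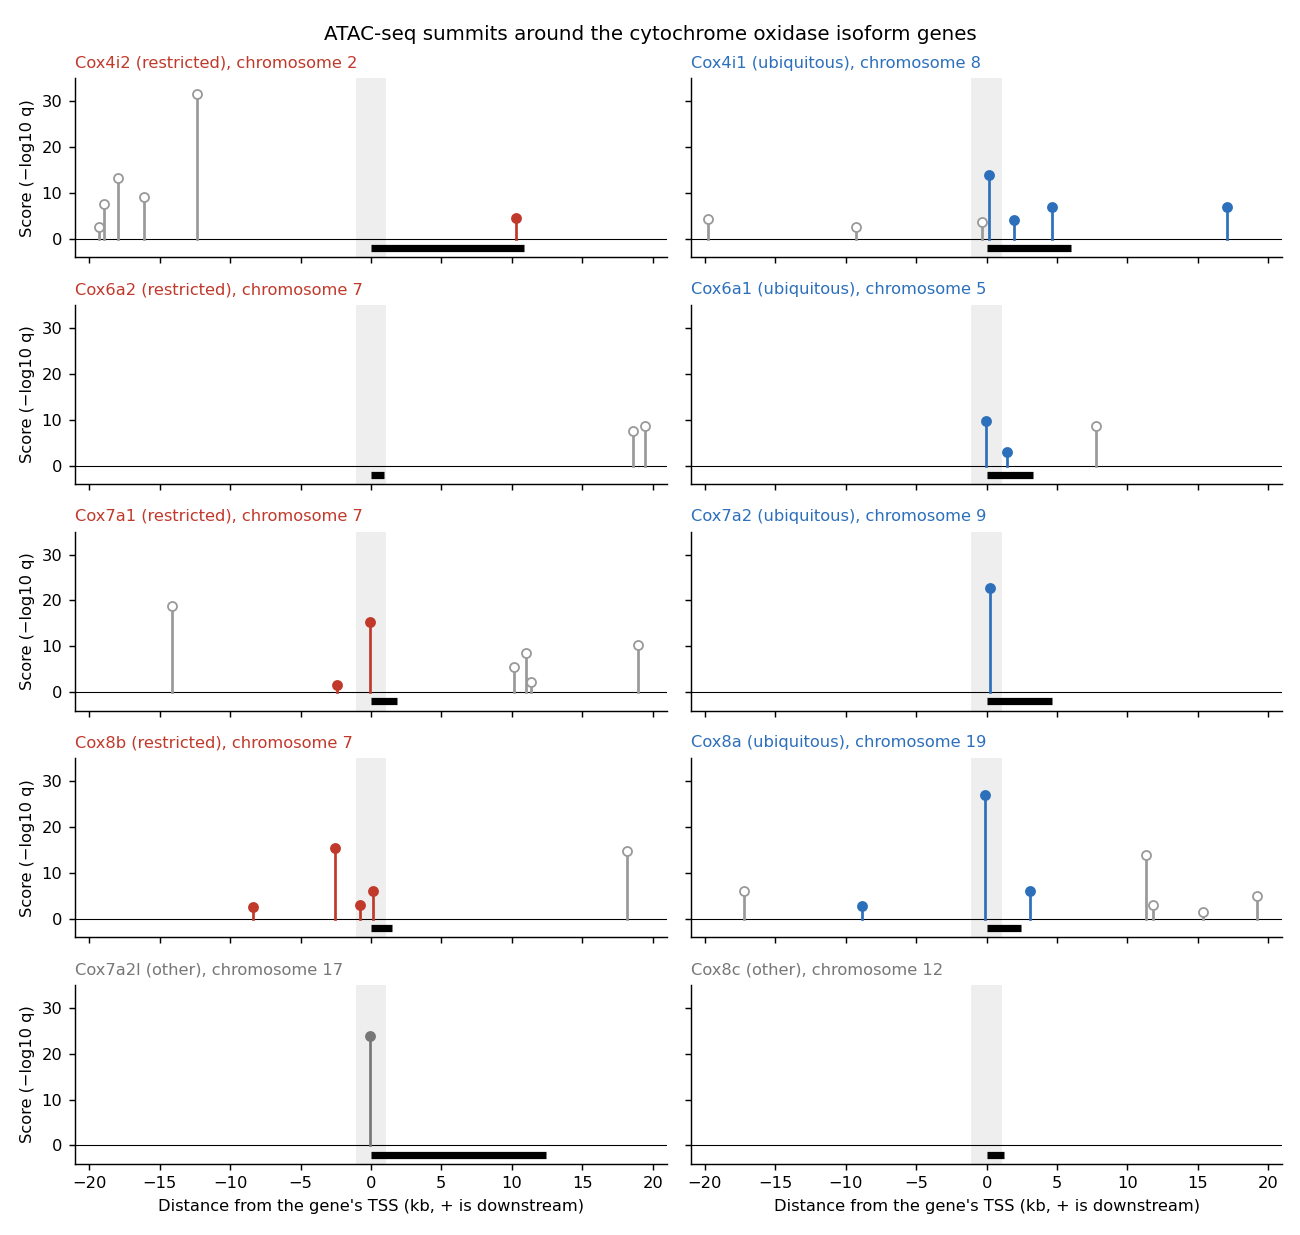
Summits in the 10 loci by distance from the gene's TSS (kb, positive downstream) and score (−log10 q), with the gene as a black bar and 1 kb on either side of the TSS in grey. Filled coloured points are summits whose nearest TSS is the member's and open grey points those nearest to another gene, and the TSSs of Cox4i2, Cox6a2 and Cox8c stand without a summit in the grey range.

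The partners differ in coding sequence as separate genes do. Over aligned bases, Cox8b and Cox8a were 56.4% identical, Cox7a1 and Cox7a2 62.6%, Cox6a2 and Cox6a1 64.6%, and Cox4i2 and Cox4i1 70.8%. Cox7a2l was 69.9% identical to Cox7a2 and 66.5% to Cox7a1, with a longer coding sequence of 405 bases against 252 and 243. Cox8c was 58.5% identical to Cox8a and 58.9% to Cox8b. How reads with several possible places were treated is not given in the sources used here.

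Promoter summits were also counted at the other genes of the enzyme. Of 9 other structural subunit genes, 4 of them CpG-rich, 5 had a promoter summit, with a median score of 9.78. These were Ndufa4 (36.7), which encodes a subunit once placed in complex I, Cox5a (23.1), Cox7c (9.78), Cox6b1 (8.65) and Cox5b (7.58). Cox6b2, the testis partner of Cox6b1, and Cox7b2, the testis partner of Cox7b, had none, and neither did Cox6c and Cox7b, which are used widely. None of these genes without a promoter summit was CpG-rich. Of 22 assembly factor genes, 21 had a promoter summit and Coa3 did not, and their median score was 14.0. Of these 22 genes, 19 were CpG-rich. A promoter summit was found at 45.2% of all genes and at 73.1% of CpG-rich genes. With each summit given only to the gene of the nearest TSS, 17 of the 22 and 41.4% of all genes had one, since those of Cox15, Surf1, Cmc2 and Pet100 lay nearer to other genes, and the structural subunit genes still numbered 5. Cox14 (59.8), Cox20 (45.8) and Cox18 (39.3), which help to build the catalytic core subunits, had the highest scores of the 31 other genes.

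Promoter summits were also counted at marker genes, beside 45.2% of all genes and 20.3% of those that were not CpG-rich. All 10 adipocyte markers had a promoter summit, with scores of 6.02 to 61.5 and of 33.7 at Ucp1, the uncoupling protein of brown fat. The list holds Ucp1, Cidea, Dio2, Elovl3, Ppargc1a, Ppara and Prdm16, which are used as genes of the brown fat programme, and Pparg, Adipoq and Fabp4, which mark fat cells in general. Of 12 skeletal muscle markers 2 had one, Mylpf (43.7) and Actn3 (22.4), and the one of Actn3 lay nearer to the TSS of another gene. Only 1 of the 12 was CpG-rich, and their share of 16.7% is near that of other genes that were not. Of 6 markers of mural cells, the contractile cells around small vessels, Cspg4 alone had one (2.53). Since a missing summit is not read as closed chromatin, these counts do not show whether muscle or mural cells were in the samples. The part that other cell types of the tissue have in the isoform summits was not tested.

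The score minimum changed these counts. With a score of at least 10, 23.5% of all genes kept a promoter summit, and the restricted genes fell to 1 of 4 (Cox7a1) and the ubiquitous genes to 3 of 4, without Cox6a1. When promoters ended 100 bp past the TSS, the summits of Cox7a2, Cox4i1 and Cox8b given above fell outside. Cox7a2 then had none, so that the ubiquitous genes also numbered 3. Cox4i1 was counted through its summit with a score of 3.75, which was nearest to the TSS of Emc8, and Cox8b through the one with a score of 2.91.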

How the data were processed

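ATAC-seq libraries of BAT from 2 WT and 2 Dot1L-BKO mice were used. Per the methods and the labels, the authors used BWA to align reads to mm10 and called peaks with MACS2 2.1.1 in ATAC mode, keeping those with q up to 0.05 that were enriched at least 2.0 times. The authors deposited 1 summit per peak with the −log10 of its q-value, in 1 list named for the 4 libraries. Read shifting and duplicate removal are not given in the sources used here. Depth per library is unknown, and no precision can be given for single scores.

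Summits were placed against RefSeq mRNAs of GRCm38.p6, the same build, on chromosomes 1 to 19, X and Y. The highest score within 1 kb of a TSS stood for a promoter. CpG and GC content were read from the genome at the TSS with most transcripts, and coding sequences were aligned globally with biopython 1.88. The members, gene lists and motifs were chosen with earlier results of these data known. Named genes were all members and other complex IV genes without a promoter summit or with the 3 highest scores, and a gene with the nearest TSS could be named beside a summit. Cox7c, Cox6b1, Cox5b, Cox5a, Ndufa4, Cox15, Surf1, Cmc2, Pet100, Btbd7, Gm27021 and the marker genes besides Ucp1 were named after their values were seen. Alternatives changed the score minimum, window, transcripts, assignment, merging of summits and motif window. Intervals were computed with scipy 1.17.1, and figures were drawn with matplotlib 3.10.9 in Python 3.11.15 (with pandas 2.3.3 and numpy 2.4.6).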

Additional observations from a re-analysis of the deposited data

How the results depend on the processing

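No paired analysis was possible because each peak has a single score and none for a single library, and for that reason no replicate could be left out in turn. The unknown depth limits every statement on a missing summit to this list and its cutoff. Of the ubiquitous genes, 3 or 4 had a promoter summit under the alternatives run, though Cox4i1 only through its weaker summit (3.75) when promoters ended 100 bp past the TSS. Both Cox7a1 and Cox8b had one except with a score of at least 10, which left 1 restricted gene and 17 of the 31 other complex IV genes, while the share of all genes fell to 23.5%. At a score minimum of 5 that share became 36.1%. It was 41.4% for promoters of 500 bp to each side, 50% for 5 kb, and 35.2% for promoters that ended 100 bp past the TSS. The difference Cox8b minus Cox8a was -11.6 within 5 kb, where the summit 2526 bp upstream counts, and -24.0 for promoters that ended 100 bp past the TSS, where the one in exon 1 does not and the one with a score of 2.91 stands for Cox8b. With each summit given only to the gene of the nearest TSS, 22 of the 31 other complex IV genes had one, against 26, and 41.4% of all genes did, a share added after seeing the data. Cox7a1 minus Cox7a2 was -7.36 wherever it was computed, which leaves out the merging of summits and the promoters that ended 100 bp past the TSS. The 40 summits of the loci became 26 and 12 with a score of at least 5 and 10, 20 within 10 kb, 86 within 50 kb and 18 when only summits nearest to a member were counted, all by construction. Of all pairs of 1 of the 6 genes and 1 of the 13 motifs, 11 had at least 1 match, and 21 did in the longer window from 1000 bases before to 50 after the start.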
